A study of Saccharomyces cerevisiae with 10 samples.

Results

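The 5 arrays labelled delPPT1 were analysed here, of 10 arrays in the series, and no wild type array was used. The strain is budding yeast (Saccharomyces cerevisiae) labelled as a deletion of PPT1, taken at 0, 7, 15, 30 and 60 min around a hypo-osmotic shock, a shift to lower osmolarity. Each time had 1 array, chosen by its title, and every later time was set against the 0 min array of the same strain. Each array had 2 channels, with the sample's total RNA in channel 1 and the other channel labelled as the reference. The labels leave open the strain background, the mating type, the medium, the osmolyte, the make-up of the reference and the number of cultures. No unshifted culture was followed, so effects of the shift and of time or handling cannot be told apart.

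Ppt1, the product of PPT1, is a serine/threonine phosphatase whose known yeast substrate is the chaperone Hsp90. Yeast cells in high osmolarity make and keep glycerol through the HOG (high osmolarity glycerol) pathway. When the outside becomes dilute, water enters, the cell wall is stretched, the cell wall integrity pathway with its MAP kinase Slt2 is activated, and calcium enters and acts through the phosphatase calcineurin.

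Values were taken as log2 ratios and centred on the median of each array, and the ratio is likely sample over reference. The labels do not state this direction. It was inferred from channel 2 being named the reference. The glycerol genes GPD1 and GPP2, which high osmolarity is known to induce, also read highest before the shift. STL1, another gene of the HOG and glycerol list used below, read lowest then, at -0.74. These genes therefore do not settle the direction. With the ratio turned, every direction below would turn with it. A difference of 1 is 2-fold if the logs are to base 2. With 1 array per time there is no replicate error, so no test, p-value or standard error is given, and each count describes these 5 arrays. The 0 min array enters every difference from 0 min, so an error on that array would move a gene the same way at all 4 later times. The measurements that do not use it are named as such.

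The arrays held between 5701 and 5807 values for 5822 genes, and 5538 genes had all 5 values. The 0 min array had the widest spread, with an SD of 0.4996, against 0.350 to 0.374 for the 4 later arrays. Across genes, the 0 min array correlated with the 7, 15, 30 and 60 min arrays at r = 0.77, 0.60, 0.42 and 0.38 (over 5687 to 5787 genes). The lowest of the 10 array pairs was 0 and 60 min. The arrays share a reference and genes are not independent, so these correlations are descriptions.

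PPT1 itself was measured on all 5 arrays. Its centred log2 ratio was 0.10, 0.40, 0.07, -0.32 and -0.55 at 0, 7, 15, 30 and 60 min. These values lay at the 60.3, 88.2, 60.02, 16.4 and 5.14 percentiles of their arrays. PPT1 thus read near the middle of the array before the shift, and its difference from 0 min stayed under 1 at every time (0.30, -0.03, -0.42 and -0.65). The labels do not say which part of the gene the spot covers. PPT1 does not bear out the deletion on its own, so the arrays are called by their label. Its neighbours ASN2 and YGR122W were also less than 1 from 0 min at each time.

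After the shift, genes lower than at 0 min outnumbered genes higher than at 0 min on each later array. At 7 min 66 genes (1.14% of 5787) were at least 1 lower and 11 (0.19%) at least 1 higher. At 15 min 126 (2.18%) were lower and 27 (0.467%) higher, and at 30 min 215 (3.78%) were lower and 34 (0.597%) higher. At 60 min the counts were 222 (3.9% of 5687) lower and 37 (0.651%) higher. The SD of the difference over all genes widened with time, at 0.32, 0.40, 0.48 and 0.49, while the median stayed between -0.017 and -0.007. The share of higher genes depended on scaling. It was 14.3%, 17.6%, 13.7% and 14.3% of the genes past 2-fold at the 4 times, and 28.2%, 37.9%, 36.6% and 35.98% with quantile normalization.

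**Figure D1:**
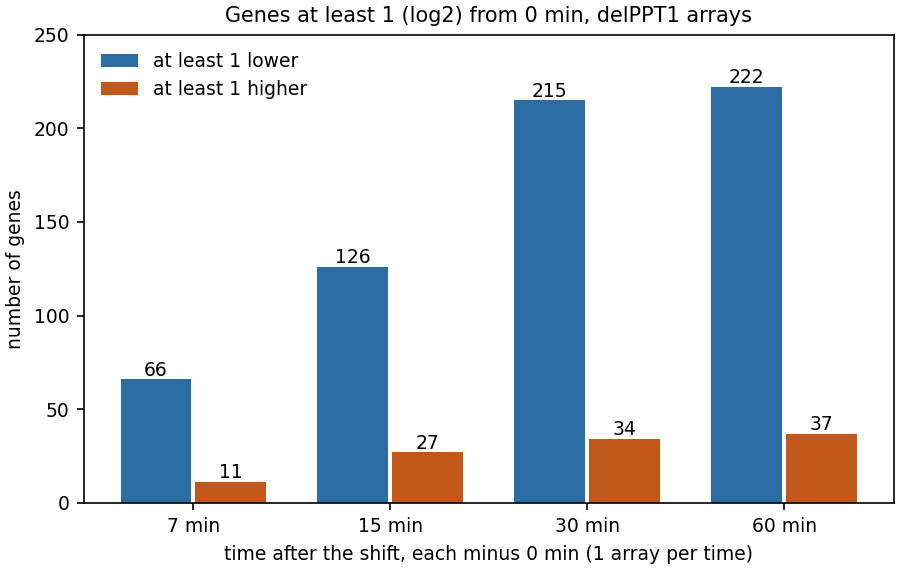
Number of genes at least 1 lower (blue) or at least 1 higher (orange) on the log2 scale than on the 0 min array, at 7, 15, 30 and 60 min, with 1 array per time. Lower genes outnumber higher ones at each time, from 66 against 11 at 7 min to 222 against 37 at 60 min.

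Steps between neighbouring arrays after the shift do not use the 0 min array. From 7 to 15 min 25 genes (0.432% of 5781) were at least 1 lower and 8 (0.138%) higher. From 15 to 30 min 71 (1.25%) were lower and 7 (0.123%) higher. From 30 to 60 min 14 (0.25%) were lower and 12 (0.215%) higher. The step with the most genes past 2-fold after 7 min was therefore that from 15 to 30 min, and the numbers of lower and higher genes were close only in the last step.

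A gene was counted as consistent when it was at least 1 away from 0 min with the same sign at 3 or more of the 4 later times. Of the 5801 genes that could be counted, 110 (1.9%) were consistently lower and 10 (0.172%) consistently higher. Of the lower genes 41 were past 2-fold at all 4 times, and of the higher genes 3. A further 58 genes were at least 1 lower at 2 times only and 140 at 1 time only, against 16 and 44 for higher genes. Because each of these differences subtracts the same 0 min value, the agreement in sign is partly built in. All 110 lower genes stood above the array median at 0 min, 93 of them by at least 1, and all 10 higher genes stood below it. Quantile normalization, which narrows the wide 0 min array to the width of the others, left 34 of the 110 lower genes, and scaling each array by its median absolute deviation (MAD) left 59 of the 110 and 5 of the 10. Asking for all 3 remaining times, the lower count was 97 without the 7 min array, 45 without 15 min, 46 without 30 min and 45 without 60 min, and the higher count was 5, 5, 5 and 4.

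The edge of the rule was close on both sides. Just inside it for lower genes, the third most extreme difference was -1.013 for AGA1, -1.012 for YER135C and -1.01 for NSR1. Just outside stood ATR1 at -0.997, RIE1 at -0.992 and HMT1 at -0.986. For higher genes AZF1 was just inside at 1.006 and CAR1 at 1.026, and ERG5 (0.982), FRE1 (0.962) and TOS4 (0.953) were just outside. The genes on either side of the limit were alike in size.

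**Figure D2:**
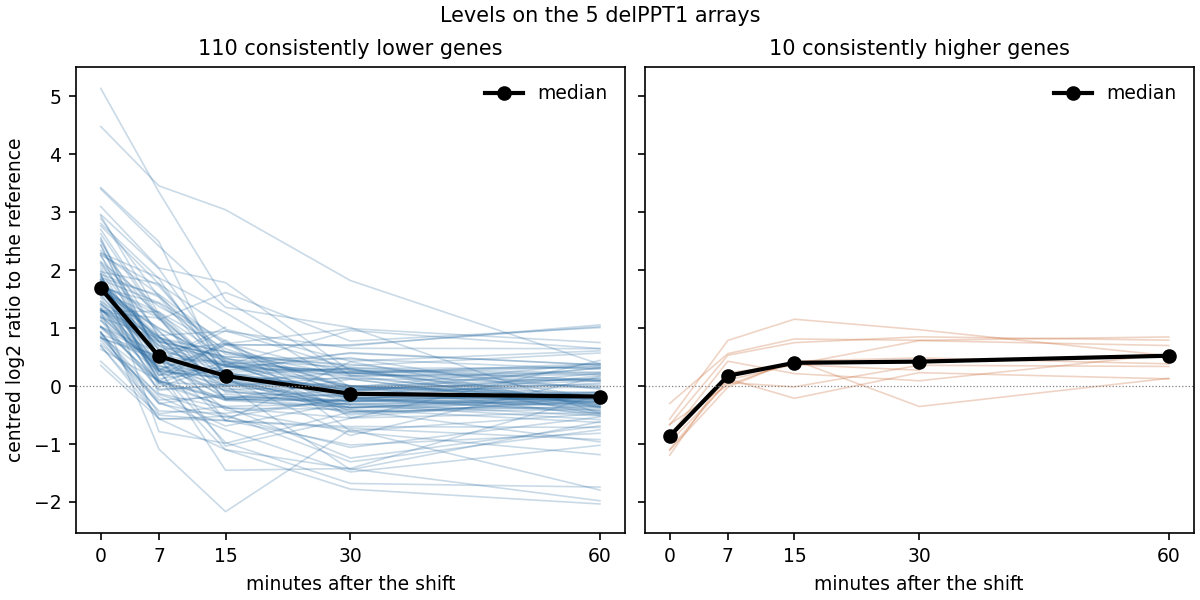
Centred log2 ratio to the reference (vertical axis) against minutes after the shift for each of the 110 consistently lower genes (left) and the 10 consistently higher genes (right), with the median in black. The median of the lower genes is -0.18 at 60 min, against 1.69 at 0 min, and that of the higher genes is 0.52 at 60 min, against -0.87 at 0 min.

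The consistently lower genes came down in steps. Their median level was 1.69, 0.52, 0.18, -0.13 and -0.18 at 0, 7, 15, 30 and 60 min. At 60 min 83 of the 110 lay within 0.5 of the array median, and so near the level of the reference for a typical gene. The most extreme difference was at 7 min for 6 genes, at 15 min for 10, at 30 min for 43 and at 60 min for 51. At 60 min 106 of the 109 with a value were still at least 1 below 0 min, and 0 were within 0.5 of it.

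The lower genes split almost evenly by speed. Of the 110, 54 were already at least 1 lower at 7 min and 56 were not. The 60 min minus 7 min difference leaves out the 0 min array, but the rule used both of its values. A gene not past 2-fold at 7 min had to be past it at 60 min, so for those 56 genes the rule itself makes this difference negative. As a description, 97 of 109 were below 0, 38 were at -1 or lower, and the median was -0.63. A level that was lower on each array than on the one before it, from 0 to 60 min, was found in 33 genes.

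The 12 leading genes, by the median of the 4 differences, included kinase, purine, one-carbon, sulfur and transport genes. RCK1, a protein kinase linked to the oxidative stress response, had levels of 5.14, 3.35, 1.48, 0.18 and -0.33 at 0, 7, 15, 30 and 60 min. It had the highest value of the 0 min array and ended near the array median, -5.46 from 0 min. Its median difference was -4.30, and -2.06 with quantile normalization. PRM7 and the adjacent YDL038C had levels of 2.27, 0.24, -0.97, -1.68 and -1.74, and of 1.78, 0.10, -1.10, -1.78 and -2.03. Both ended well below the array median, and YDL038C, PRM7 and the next gene BSC1 lie side by side, so they need not be separate observations.

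YOR338W, a gene of unknown function, had levels of 1.31, -1.09, -2.17, -0.75 and -1.79. Its course was not steady, with the lowest value at 15 min and a higher one at 30 min. RSB1, which encodes a membrane protein that exports sphingoid long-chain bases, had levels of 1.94, -0.79, -0.99, -0.45 and -0.18. It showed the largest difference of the 12 genes at 7 min, -2.73, and stood closer to its 0 min level at 60 min, at -2.12. YPL088W had levels of 2.89, 1.54, 0.24 and -0.17 at 0, 7, 15 and 60 min and no value at 30 min.

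**Figure D3:**
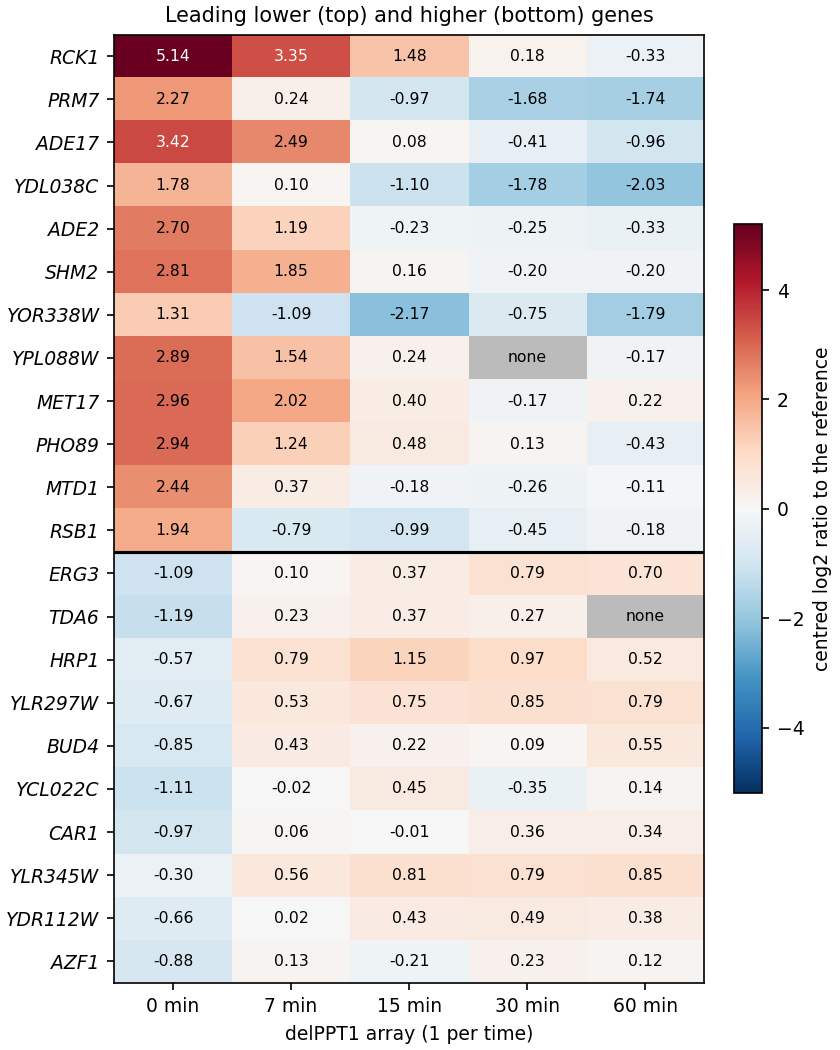
Centred log2 ratio to the reference on each of the 5 arrays (columns, 0 to 60 min) for the 12 leading consistently lower genes (above the line) and the 10 consistently higher genes (below it); grey cells have no value. RCK1 is at -0.33 at 60 min, against 5.14 at 0 min, while ERG3 is at 0.70 at 60 min, against -1.09 at 0 min.

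Purine synthesis had the most consistently lower genes of the 25 lists plotted, 7 of 14 measured, against 1.9% of all genes. Its median difference was -0.30, -1.01, -1.29 and -1.22 at 7, 15, 30 and 60 min, against -0.015, -0.015, -0.017 and -0.007 over all genes. Of the 14 genes, 2, 7, 8 and 7 were at least 1 lower at these times and 0 were at least 1 higher. The list is one that earlier results on these arrays had already pointed to.

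ADE17, an enzyme of the last steps of IMP synthesis, had levels of 3.42, 2.49, 0.08, -0.41 and -0.96. ADE2, the phosphoribosylaminoimidazole carboxylase whose loss gives red colonies, had levels of 2.70, 1.19, -0.23, -0.25 and -0.33. ADE4, the first committed enzyme of the pathway, had levels of 2.08, 0.94, -0.06, -0.01 and -0.11. These 3 genes lost most of their excess over the reference by 15 min and then stayed near or below the array median. ADE1 was -2.45 from 0 min at 60 min, against -0.53 at 7 min. Only ADE2 and ADE4 of the 7 were past 2-fold at 7 min, and the rule required the other 5 to be past it at 15, 30 and 60 min.

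One-carbon genes, which supply folate-bound units to purine and methionine synthesis, had 4 of 10 among the consistently lower genes, against 1.9% of all genes. SHM2, the cytosolic serine hydroxymethyltransferase, had levels of 2.81, 1.86, 0.16, -0.20 and -0.20. MTD1, a cytosolic methylenetetrahydrofolate dehydrogenase, had levels of 2.44, 0.37, -0.18, -0.26 and -0.11. MTD1 was -2.06 from 0 min already at 7 min, while SHM2 was at -0.95 then and at -2.65 at 15 min. GCV1, a subunit of the mitochondrial glycine cleavage system, had levels of 2.11, 1.24, 0.14, -0.85 and 0.16, with its lowest value at 30 min. GCV2, another subunit of that system, was at -1.55 from 0 min at 60 min. The list's median difference was -0.40, -0.52, -0.84 and -0.54 at 7, 15, 30 and 60 min.

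In sulfate assimilation and methionine synthesis 3 of 18 genes were consistently lower, against 1.9% of all genes, and none of the 3 was past 2-fold at 7 min. MET17, the sulfhydrylase that incorporates sulfide, had levels of 2.96, 2.02, 0.40, -0.17 and 0.22. MET6, the methionine synthase, was at -0.70, -2.05, -1.04 and -1.82 from 0 min, and SAM2, an S-adenosylmethionine synthetase, at -0.11, -1.21, -1.04 and -1.48. MET17 was lowest at 30 min, MET6 at 15 min and SAM2 at 60 min. The list's median difference was -0.18, -0.40, -0.25 and -0.58. In arginine metabolism, with 13 genes measured, ARG3 of synthesis was consistently lower (-0.92, -1.16, -1.81 and -1.61) and CAR1, the arginase of breakdown, consistently higher. Over all genes these shares were 1.9% and 0.172%.

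Cell wall integrity targets and kinases included 6 consistently lower genes of 30, against 1.9% of all genes. Of the 30, 3 were at least 1 lower at 7 min, 5 at 15 min, 12 at 60 min, and of the 29 with a value at 30 min 10 were. Over all genes the shares lower at 7, 15, 30 and 60 min were 1.14%, 2.18%, 3.78% and 3.9%. None was at least 1 higher at any time. Of the kinases in the list only SLT2 was consistently lower. MKK2 was at 0.43, 0.55, 0.81 and 0.69 from 0 min, and MKK1 and BCK1 were also above 0 min at each time measured. PKC1 was at -0.04, 0.03, -0.03 and 0.14. NCW2, a cell wall protein gene, had levels of 2.57, 0.47, 0.42, -0.20 and -0.10, and SLT2, the MAP kinase of the pathway, had levels of 2.500, 0.84, 0.58, 0.18 and 0.24. For both the largest step was that between 0 and 7 min, and both ended near the array median. PTP2, a tyrosine phosphatase that acts on MAP kinases, was at -0.99, -1.34, -1.51 and -1.49 from 0 min. The other 3 consistently lower genes of the list were SRL3, CHS1 and RLM1. SPI1, a cell wall protein gene, was slower and did not meet the rule, at -0.66, -0.83, -2.08 and -3.04. The median of these 4 values was -1.46, and -0.28 with quantile normalization. The list's median difference was -0.23, -0.34, -0.50 and -0.79, but its sign at the early times depended on scaling. With quantile normalization it was 0.03 at 7 min and 0.10 at 15 min, and with median and MAD scaling 0.05 at 7 min.

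Of 14 genes in the calcineurin list 4 were consistently lower, against 1.9% of all genes, and all 4 were past 2-fold at 7 min. Besides targets the list holds the calcineurin subunit genes CNA1, CMP2 and CNB1 and the transcription factor gene CRZ1. None of those was past 2-fold at any time. CMK2, a calmodulin-dependent protein kinase, had levels of 2.43, 0.46, 0.18, -0.02 and 0.40. YPS1, a cell surface aspartyl protease, had levels of 2.14, 0.60, 0.37, 0.56 and 0.37. After 7 min these 2 genes moved little, with 60 min minus 7 min differences of -0.06 and -0.23. PHO89, the sodium-phosphate cotransporter, was further from its 0 min level at each time, at -1.70, -2.46, -2.81 and -3.37. GYP7, a GTPase-activating protein of membrane traffic, was at -1.09, -0.93, -1.11 and -1.37. The list's median was -0.30, -0.51, -0.35 and -0.68. PHO89 was also the only consistently lower gene of the 14 in the phosphate regulon, against 1.9% of all genes. PHO84, the high-affinity phosphate transporter of that list, was at -0.94 at 60 min.

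In the HOG pathway and glycerol synthesis list 5 of 21 genes were consistently lower, against 1.9% of all genes. Besides targets the list holds genes of the pathway itself. Among these, HOG1, PBS2, SHO1, SSK1, SLN1, STE11 and STE50 were past 2-fold at no time. PBS2, SHO1, SSK1 and STE50 were above 0 min at each time, STE11 was below it, and HOG1 and SLN1 were on both sides. STL1 was also above 0 min, at 0.415, 0.40, 0.65 and 0.53. GPD1, the glycerol-3-phosphate dehydrogenase, had levels of 1.81, 0.18, 0.71, 0.71 and 1.03. It was lowest at 7 min and stood 0.84 above its 7 min level at 60 min, the largest such return among the 109 consistently lower genes with both values. GPP2, the glycerol phosphatase that follows it, behaved otherwise, with levels of 1.80, 0.86, -0.22, -0.06 and -0.28. GRE2, a methylglyoxal reductase, followed a course like that of GPP2, at -0.78, -1.84, -1.91 and -1.93 from 0 min. Quantile normalization moved the median difference of GPD1 to -0.42, against -1.10 as centred, and that of GPP2 to -1.37, against -1.93. The list's median was -0.18, -0.31, -0.33 and -0.19, and at 60 min it was 0.02 with quantile normalization.

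General stress genes, which the transcription factors Msn2 and Msn4 induce in many stresses, had a median below that of all genes at each time. The medians were -0.73, -0.62, -0.81 and -0.93. Of 26 genes, 8, 5, 7 and 12 were at least 1 lower at the 4 times, 0 were at least 1 higher, and 6 were consistently lower. Over all genes 1.14%, 2.18%, 3.78% and 3.9% were at least 1 lower and 1.9% consistently lower. HSP12, a small membrane-associated stress protein, had levels of 3.402, 2.41, 1.36, 1.01 and -0.47. CTT1, the cytosolic catalase, had levels of 1.83, 0.28, 0.74, 0.21 and 0.34. HSP12 was lower on each array than on the one before, whereas CTT1 was near its final level at 7 min. The median difference of HSP12 was -2.22, and -0.97 with quantile normalization. HSP12 and CTT1 are also 2 of the 5 consistently lower genes of the HOG list, so the stress lists overlap. SOL4, a phosphogluconolactonase, was at -1.46, -0.93, -1.58 and -2.20 from 0 min.

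Small stress and heat shock proteins had the lowest median of the 25 lists plotted at 60 min, at -1.40, after -0.65, -1.10 and -0.95, and 5 of 9 were consistently lower, against 1.9% of all genes, 4 of them also among the general stress genes. HSP26, a small heat shock protein that binds unfolded proteins, was at -0.71, -1.58, -2.35 and -1.98, and HSP31 at -0.62, -1.19, -2.05 and -2.02. HSP104, the disaggregase, differed in time, at -1.40, -1.25, -0.95 and -1.16. It was past 2-fold at 7 min, where HSP26 and HSP31 were not. In the list of Hsp90, Hsp70 and co-chaperones 3 of 23 were consistently lower, against 1.9% of all genes. They were HSP26, HSP104 and SSE2, a nucleotide exchange factor of Hsp70. HSP26 and HSP104 are neither Hsp90 nor Hsp70 genes and were already counted in the small stress list. Of the 3, only SSE2 belongs to the group around Hsp90, the known substrate of Ppt1. The median of that list was -0.28, -0.38, -0.23 and -0.10. At 60 min 13 of its 22 genes were below 0 min and 9 above, against 2884 below and 2801 above of 5687 over all genes. The Hsp90 genes themselves were not consistently lower. HSP82 was at -0.47, -0.55, 0.09 and 0.62, and HSC82 at -0.11, -0.32, 0.25 and 0.695. SSA1, a cytosolic Hsp70, was at -0.88, -0.92, -0.39 and 0.27. Its level at 60 min stood above that at 0 min, but it shares near-identical sequence with SSA2, so the value is uncertain.

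**Figure D4:**
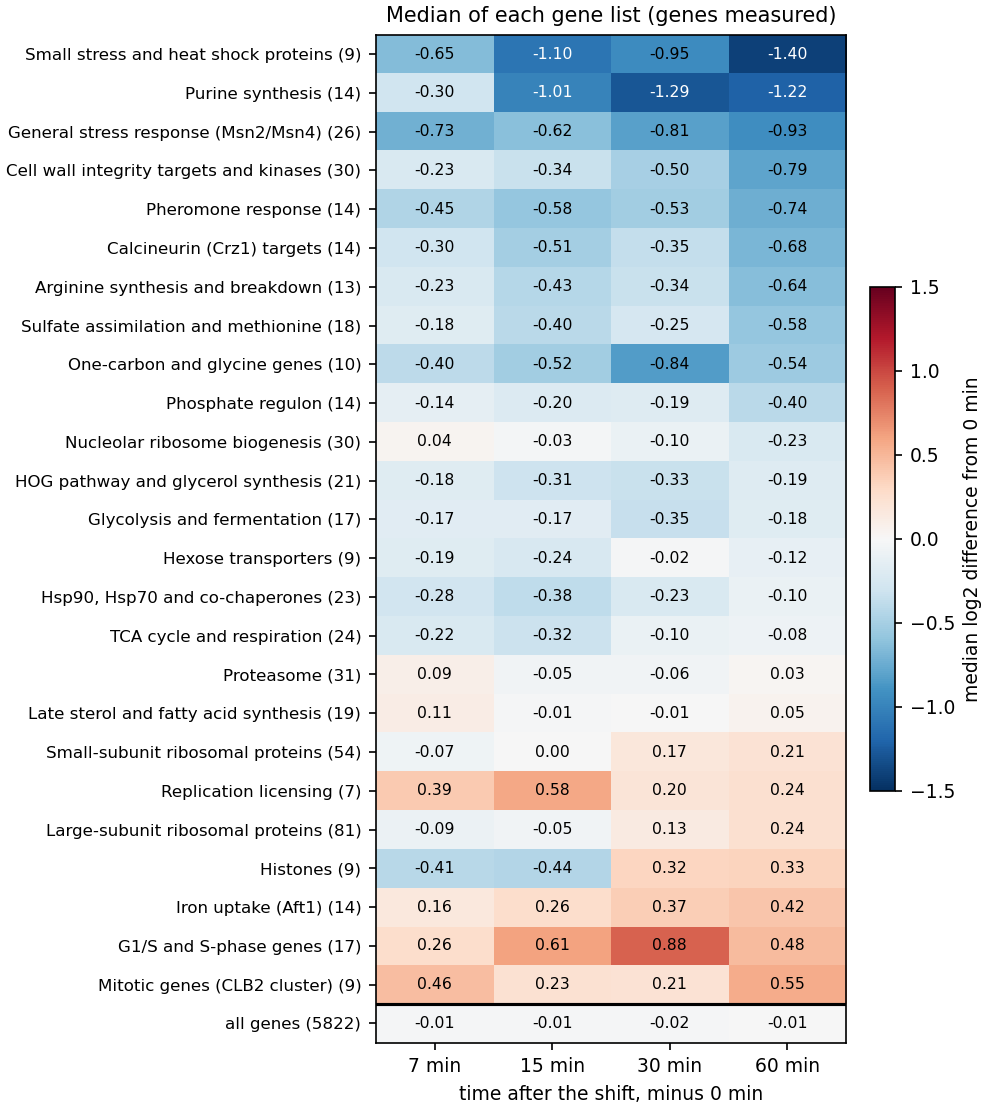
Median log2 difference from 0 min (colour and number) at 7, 15, 30 and 60 min for 25 gene lists, with the number of genes measured in brackets and all genes in the last row. Small stress proteins (-1.40) and purine synthesis (-1.22) have the lowest medians at 60 min, and G1/S and S-phase genes the highest at 30 min (0.88).

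Of the 10 consistently higher genes, 8 were past 2-fold already at 7 min. ERG3, a desaturase of ergosterol synthesis, had levels of -1.09, 0.10, 0.37, 0.79 and 0.70. HRP1, a subunit of an mRNA cleavage factor, had levels of -0.57, 0.79, 1.15, 0.97 and 0.52. YLR297W, of unknown function, had levels of -0.67, 0.53, 0.75, 0.85 and 0.79. These 3 were past 2-fold at all 4 times. HRP1 was highest at 15 min, and its 60 min minus 7 min difference was -0.26, against 0.60 for ERG3.

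CAR1 had levels of -0.97, 0.06, -0.01, 0.36 and 0.34. BUD4, which marks the site of axial budding, had levels of -0.85, 0.43, 0.22, 0.09 and 0.55. AZF1, a zinc-finger transcription factor, had levels of -0.88, 0.13, -0.21, 0.23 and 0.12, and TDA6 had levels of -1.19, 0.23, 0.37 and 0.27 up to 30 min and no value at 60 min. The other 3, YLR345W, YDR112W and YCL022C, had medians of the 4 differences of 1.10, 1.07 and 1.17. For all 10 the larger part of the difference was reached at 7 min. Their median difference was 1.24 at 60 min, against 1.15 at 7 min. All of these differences share the 0 min value.

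G1/S and S-phase genes stood above 0 min in the middle of the course, with 0 of them consistently higher, against 0.172% of all genes. The 17 G1/S and S-phase genes had a median of 0.26, 0.61, 0.88 and 0.48, with 0, 3, 5 and 1 at least 1 higher and 0 lower at the 4 times. Over all genes 0.19%, 0.467%, 0.597% and 0.651% were at least 1 higher. POL30, the replication clamp PCNA, had levels of -0.87, -0.46, 0.19, 0.64 and -0.14, and CLN1, a G1 cyclin, had levels of -0.56, 0.01, 0.60, 0.90 and 0.21. Both were highest at 30 min and lower again at 60 min. TOS4, a forkhead-associated protein gene, was at 0.38, 0.95, 1.32 and 1.26 from 0 min and so did not come back. CLB5, an S-phase cyclin, was at 0.27, 0.78, 0.79 and 0.73.

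The 9 mitotic genes measured had medians of 0.46, 0.23, 0.21 and 0.55, highest at the first and last times. CLB2, a mitotic cyclin, had levels of -0.56, 0.06, -0.02, -0.04 and 0.60, and CDC5, the polo kinase, was at 0.76, 0.47, 0.60 and 0.97 from 0 min. CLB1 went the other way in the middle, at -0.51, -0.85, -0.97 and 0.23. The 9 histone genes had medians of -0.41, -0.44, 0.32 and 0.33, below 0 min at 7 and 15 min and above it at 30 and 60 min. HTB1, a histone H2B gene, had levels of 0.47, -0.03, 0.00, 0.49 and 0.68. No histone gene was past 2-fold at any time. The 7 replication licensing genes had medians of 0.39, 0.58, 0.20 and 0.24, with MCM7 of the helicase ring at 0.63, 0.66, 0.10 and 0.47, and again 0 past 2-fold.

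Iron uptake genes, 14 measured and 13 at 60 min, had medians of 0.16, 0.26, 0.37 and 0.42. Of them 1, 1, 2 and 1 were at least 1 higher, against 0.19%, 0.467%, 0.597% and 0.651% of all genes. At 60 min 10 of the 13 were above 0 min and 3 below, against 2801 above and 2884 below of 5687 over all genes. FRE1, a surface ferric reductase, had levels of -1.79, -1.18, -0.83, -0.25 and 0.26, the lowest value of the 0 min array. SIT1, a siderophore transporter, had levels of 0.33, 1.91, 1.37, 0.76 and 0.80. FRE1 was higher on each array than on the one before, while SIT1 was highest at 7 min. FET3, the multicopper oxidase of iron uptake, was at 0.62, 0.33, 1.23 and 0.92 from 0 min.

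In the lipid list of 19 genes, OLE1, the fatty acid desaturase, was the only consistently lower gene and ERG3 the only consistently higher one. Over all genes these shares were 1.9% and 0.172%. OLE1 had levels of 1.24, 0.29, -1.45, -1.42 and -0.15, lowest at 15 min and 1.30 higher than that at 60 min. ERG5, the sterol C-22 desaturase, was at 0.98, 0.92, 1.19 and 1.15 from 0 min. FAS2, a fatty acid synthase subunit, was at -0.24, -0.77, -0.93 and -0.64. The list's median stayed between -0.01 and 0.11, and at 15 and 30 min its sign depended on scaling.

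In pheromone response 2 of 14 genes were consistently lower, against 1.9% of all genes, KAR4, a transcription factor of mating genes (-1.23, -1.18, -1.02 and -1.43), and AGA1, an anchor of the agglutinin (-0.21, -1.61, -1.01 and -1.33). FUS1, a cell fusion gene, was close to the limit at each time (-0.95, -0.99, -0.90 and -1.14). HXT5 was the only consistently lower hexose transporter gene of 9 measured, against 1.9% of all genes. It was at -1.26, -1.30, -1.40 and -1.41, a nearly flat course after 7 min. Glycolysis and fermentation had 0 consistent genes of 17, against 1.9% of all genes lower and 0.172% higher. A list of this size could hold none at those shares. TDH1, a glyceraldehyde-3-phosphate dehydrogenase, was at -0.52, -0.77, -1.36 and -1.25. TDH1, TDH2 and TDH3 are near-identical, so their values are uncertain one against the other.

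The largest lists moved little. The 81 large-subunit ribosomal protein genes had medians of -0.09, -0.05, 0.13 and 0.24 and the 54 small-subunit ones -0.07, 0.00, 0.17 and 0.21, with 0 past 2-fold in either list at any time. The sign of the small-subunit median at 15 min depended on scaling. RPL41A had the largest median difference of the large-subunit genes, at 0.33, 0.44, 0.48 and 0.67. Nucleolar ribosome biogenesis had medians of 0.04, -0.03, -0.10 and -0.23. Its only consistently lower gene of 30 was NSR1, a nucleolar RNA-binding protein, against 1.9% of all genes. The 31 proteasome genes had medians between -0.06 and 0.09, with 0 past 2-fold. The 24 TCA cycle and respiration genes had medians of -0.22, -0.32, -0.105 and -0.08. At 60 min ACO1, aconitase (1.21), and IDH2, a subunit of isocitrate dehydrogenase (1.14), were at least 1 higher, against 0.651% of all genes. None of the list was past 2-fold before.

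Position in the genome was not used by the rule. By systematic name, 8 pairs of consistently lower genes were immediate neighbours, and 0 pairs of consistently higher genes. The sets held 110 and 10 genes, so more pairs can arise among the lower genes by number alone. How many pairs sets of these sizes would hold among all genes was not worked out, so the counts are only a description. In 1 of these pairs GPD1 was at -1.62, -1.10, -1.10 and -0.78, and the overlapping reading frame YDL023C at -1.56, -1.11, -1.13 and -0.77. In another GRE2 stood beside YOL150C (-0.46, -1.52, -1.75 and -1.66). The courses of GPD1 and YDL023C differed by less than 0.1 at each time. The labels do not say whether a spot tells the strands apart, so such a pair may be 1 observation. Other neighbours differed more, as OPI3 (-0.43, -1.03, -2.32 and -2.48) did from MOG1 (-0.39, -1.12, -1.16 and -1.01). RLM1, the transcription factor below Slt2 (-0.78, -1.06, -1.24 and -1.24), lay beside YPL088W (-1.36, -2.65 and -3.06 at 7, 15 and 60 min).

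A single-time peak was a gene at least 1 from 0 min at exactly 1 later time and less than 0.5 from it at the other 3. Of the 5538 genes with all values 36 (0.65%) met this, 2 lower at 7 min (0.0361%), 2 higher at 15 min (0.0361%), 14 lower at 30 min (0.253%), and 14 lower (0.253%) and 4 higher (0.0722%) at 60 min. No peak was found higher at 7 or 30 min or lower at 15 min. Each peak rests on 1 value of 1 array, and a deviating spot would look the same. Most peaks were on the 30 and 60 min arrays, which had 114 and 121 missing values, against 20 and 21 on the 7 and 15 min arrays. Whether spot quality has a part in the peaks was not tested.

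At 7 min SSQ1, a mitochondrial Hsp70 of iron-sulfur cluster assembly, stood at -1.53 and then at 0.29, 0.44 and 0.34. GSY2, glycogen synthase, stood at -1.046 and then at -0.11, -0.41 and -0.41. The 15 min peaks were SYF1, a splicing factor (1.11), and PMT7 (1.048). At 30 min YLR311C (-1.44) and PEX19, a peroxisome import chaperone (-1.34), were furthest from 0 min, and PEX19 was 0.50 above 0 min at 15 min. At 60 min YEL1, a guanine nucleotide exchange factor (-1.51), and DBP2, an RNA helicase (-1.44), were the furthest lower, and HOS2, a histone deacetylase (1.23), and MUM3 (1.14) the furthest higher. The peaks were small, from 1.02 to 1.53 in size, next to the leading consistent genes.

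**Figure D5:**
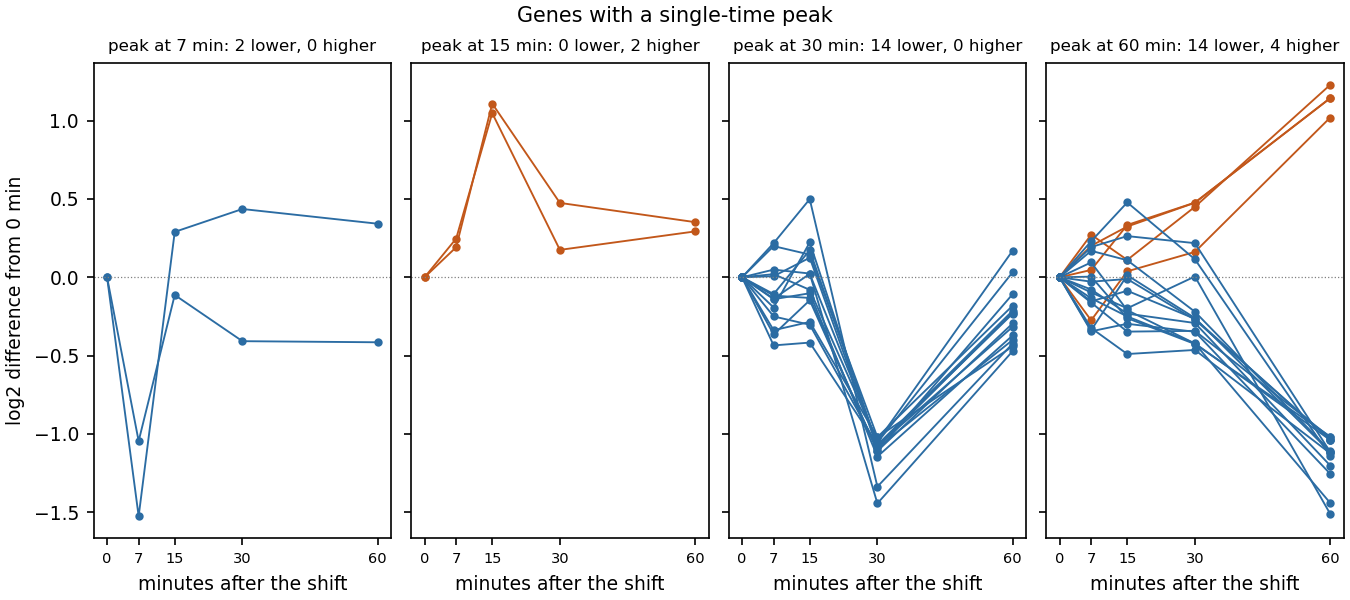
Log2 difference from 0 min (vertical axis) against minutes after the shift for the 36 genes with a single-time peak, in 1 panel per time of the peak; blue lines are lower and orange lines higher peaks. The 30 and 60 min panels hold 14 and 18 of the 36 genes.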

How the data were processed

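The deposited table holds values taken here as log2 ratios, 1 per gene and array. The labels and the table do not state how the authors made them, the log base, the background correction or the normalization. With base 10 the highest value, 5.062, would be a ratio of 115345, beyond a scanner's range. A natural log was not excluded and was tried as an alternative. All columns were mapped to samples by their label. RefSeq (assembly R64) gave a symbol for 5358 of the 5822 IDs, and 464 kept their systematic name. Each array was centred on its median, and the 0 min value was subtracted, with Python 3.11.15 and pandas 2.3.3. The steps that pick consistent genes and peaks were tested on simulated data. The simulation gave every array the same noise and no wider 0 min array, so it checks the code and not the calls made here. No test across genes was possible with 1 array per time. The genes, the 26 lists and the rules were chosen with earlier results of these data known. Named genes were PPT1, the 12 leading consistent genes per direction and the 2 largest peaks per time and direction. Up to 4 genes per list were named by median difference. The 3 consistent genes at each end of the 60 min minus 7 min difference were named too. Genes at the edge of the rule, neighbours and those of the closing section were added after their values were seen. So were STL1, HSP82, HSC82, CNA1, CMP2, CNB1 and CRZ1. The pathway genes HOG1, PBS2, SHO1, SSK1, SLN1, STE11 and STE50 and the kinase genes MKK1, MKK2, BCK1 and PKC1 were added likewise. MLP1 was left out of the cell wall list because that symbol now names a nuclear pore gene. Precision is limited by the number of arrays. Alternatives were centring, scaling, log base, missing values, limits and the arrays used. Promoter motifs were not analysed here.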

Additional observations from a re-analysis of the deposited data

How the results depend on the processing

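Directions held for every list median of at least 0.5 in size and every named gene with a median difference of at least 1 in size without centring, with quantile normalization and with median and MAD scaling. Counts at the fixed 2-fold moved more. With quantile normalization, which makes the wide 0 min array as narrow as the others, 28, 54, 92 and 105 genes were at least 1 lower at 7, 15, 30 and 60 min, 53 and 59 higher at 30 and 60 min, 34 consistently lower, all among the 110, and 22 had peaks (11 lower, 11 higher). Median and MAD scaling gave 75 lower at 15 min, 20 higher at 30 min, and 59 consistently lower and 5 higher, all among the 110 and 10. Without centring 56 were higher at 60 min and 3 peaks were higher. Read as natural logs, 167, 283, 450 and 420 genes were at least 2-fold lower and 48, 106, 147 and 145 higher at the 4 times, 225 and 49 consistently lower and higher, and 98 had peaks (77 lower, 21 higher). A limit of 1.5 left 34 lower and 0 higher consistent genes. Allowing less than 1 at the other times gave 174 peaks (132 lower, 42 higher). Leaving out 1 later array, which asks for all 3 others, gave 97 consistently lower genes without 7 min, 45 without 15 min, 46 without 30 min and 45 without 60 min, and between 4 and 5 higher, all among the 110 and 10. Genes with all 5 values gave 106 and 9. The 0 min array could not be left out. No paired analysis was possible because each time had 1 array and no replicate numbers.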

Other observations

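Some genes turned with time. URA1, the dihydroorotate dehydrogenase of pyrimidine synthesis, was the only gene at least 1 higher at 1 time and at least 1 lower at another, of 379 genes past 2-fold at any time. Its levels were -0.02, 1.053, 1.29, 0.27 and -1.32 at 0, 7, 15, 30 and 60 min. Its 60 min minus 7 min difference, which leaves out the 0 min array, was -2.37. URA2, the first enzyme of the pathway, was at 0.86, 0.96, 0.07 and -0.29 from 0 min, and URA4, dihydroorotase, at 0.66, 0.74, 0.21 and -0.50. The uridine and uracil permease genes FUI1 (0.01, -0.24, -1.85 and -2.15) and FUR4 (0.38, 0.44, -1.23 and -1.19) were close to 0 min early and at least 1 lower at 30 and 60 min. They were among only 6 genes that stayed within 0.5 of 0 min at 7 and 15 min and were past 2-fold at both later times, all 6 lower. The median of the 11 pyrimidine genes measured was 0.27, 0.03, 0.04 and -0.36 at the 4 times. This list and the next 2 were drawn up after their values were seen.

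Of 15 exporters of drugs, polyamines and lipids measured, 6 were consistently lower, against 1.9% of all genes, with medians of -0.77, -0.95, -1.01 and -1.07. Because the members of this list and of the phospholipid list were picked with their values known, neither share can show an excess over all genes. TPO4, a polyamine exporter, was at -2.07, -1.52 and -2.54 at 7, 15 and 60 min with no value at 30 min, and AQR1 was at -0.92, -1.45, -1.78 and -2.33. The 3 QDR exporter genes stayed within 0.32 of 0 min. Of 9 phospholipid synthesis genes, OPI3, a phospholipid methyltransferase (-0.43, -1.03, -2.32 and -2.48), and CHO1, the phosphatidylserine synthase (-0.28, -1.15, -1.35 and -1.13), were consistently lower, against 1.9% of all genes, while CHO2, the methyltransferase before OPI3, stayed near 0 min (0.37, 0.01, 0.06 and -0.35).

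Of the genes with all values that were past 2-fold at 7 or 15 min, 14 were within 0.5 of 0 min at 60 min, 8 of them lower and 6 higher. For comparison, 66 genes (1.14%) were at least 1 lower and 11 (0.19%) higher at 7 min over all genes. At 15 min the numbers were 126 (2.18%) and 27 (0.467%). The genes past 2-fold at either time were not counted together, so no share that returned is given. CHA1, the serine deaminase, was at -1.36, -0.51, -0.04 and 0.44.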
